A study of Mus musculus with 11 samples.

Results

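The CC chemokine family stood on a custom NanoString nCounter panel as 4 of 93 genes, the ligands ccl4 and ccl5 and the receptors ccr1 and ccr2. They were chosen by name, as the CC chemokines and CC chemokine receptors named for this report, and all 4 were measured in all 11 mice. The study asked whether cGAS and STING, which sense DNA in the cytosol and signal to interferon and NF-kB, promote disease in mouse models of lupus. An nCounter assay counts color-coded probes bound to individual RNA molecules, and here 50 ng of total RNA from the spleen of each of 11 female mice was hybridized. The labels give 3 WT/Mrl mice, 4 cGAS/Mrl mice, 1 WT/B6 mouse, 1 cGAS KO/B6 mouse and 2 WT/B6 mice that received DMXAA, an agonist of mouse STING. From the methods of the study, the Mrl mice of both genotypes carry the Fas lpr allele on the MRL/MpJ strain, which lacks functional Fas and develops lupus-like disease, and cGAS was removed on that strain by a CRISPR deletion of an exon. The cGAS KO/B6 line came from cryopreserved embryos of a mutagenesis consortium. The labels name neither Fas lpr for the Mrl mice nor a knockout for the cGAS/Mrl mice, so both are taken from the methods. The dose and time of DMXAA, a vehicle and the age of the mice at RNA isolation were not given in the sources used here. Each uninjected B6 genotype is a lone mouse with no replicate, and Mrl and B6 mice differ in strain and Fas allele together, so these cannot be told apart. Of the marker lists for macrophages and monocytes, neutrophils, T cells, NK cells, B cells, both kinds of dendritic cell and erythroid cells, 0 genes were among the 93, so that the spleen label could not be checked.

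CC chemokines are small secreted proteins that guide leukocytes through G protein-coupled receptors, and the spleen both makes them and holds the cells that answer to them. ccl4, also known as MIP-1β, is released early by activated macrophages, T cells and NK cells, and ccl5, also known as RANTES, is made by activated T cells, NK cells and macrophages and responds to both NF-kB and interferon regulatory factors. ccr1 is a receptor of myeloid cells that binds ccl5 among other ligands, and ccr2 binds ccl2 and marks inflammatory monocytes. ccl2 was not analysed here. In RefSeq (GRCm38.p6), Ccl9, Ccl6 and Ccl3 lie between Ccl5 and Ccl4, and Ccr1l1 and Ccr3 lie between Ccr1 and Ccr2.

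The total of the counts differed widely between mice, and whether this came from the depth of the measurement or from the RNA of the panel genes was not tested. The deposited signal of a mouse was a whole count for each gene multiplied by a factor of that mouse. Summed over the 93 genes these counts ranged from 28406 to 58404 in the 7 Mrl mice, and were 3612 in the WT/B6 mouse and 12386 in the cGAS KO/B6 mouse. After DMXAA they were 647148 and 600677. The factor was lowest in the WT/B6 mouse, at 0.0823, and highest in the DMXAA-injected mice, at 1.61 and 1.64, so that the signal spread the mice further apart than the counts did. Each gene was therefore given as the log2 of its signal over the median signal of the 93 genes in the same mouse, called the panel median, in which the factor cancels. A value of 0 on this scale is a gene at the panel median. In counts, the panel median was only 21 in the WT/B6 mouse and 36 in the cGAS KO/B6 mouse. It was 106 to 207 in the Mrl mice, and 681 and 605 after DMXAA. In the 2 uninjected B6 mice, 46 and 26 of the 93 genes had counts under 20. How far background held up the panel median of these mice, and so moved relative differences against them, was not tested. On the deposited scale, as log2(signal + 1), the median difference of all 93 genes was 7.87 for DMXAA-injected against uninjected WT/B6 mice, 4.84 for Mrl against uninjected B6 mice and 1.84 for DMXAA-injected against Mrl mice. As log2(count + 1) without the factor, these shifts were 3.94, 2.44 and 1.18. A difference relative to the panel median is thus one beyond the shift of the whole panel, and a gene below 0 in such a comparison can have risen in signal.

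ccl4 was the member with the widest range. Its level relative to the panel median was -1.48, -1.42 and -1.74 in the WT/Mrl mice and ranged from -1.96 to -1.55, with a median of -1.66, in the 4 cGAS/Mrl mice. It was -0.69 in the WT/B6 mouse, -0.47 in the cGAS KO/B6 mouse, and after DMXAA it was 6.56 and 6.72. The DMXAA-injected mice thus stood far above the other 9 mice, and all 7 Mrl mice lay below both uninjected B6 mice. In counts, ccl4 was read 64148 and 63641 times in the DMXAA-injected mice, 38 to 69 times in the Mrl mice, 26 times in the cGAS KO/B6 mouse and 13 times in the WT/B6 mouse, so that on counts the Mrl mice were above the uninjected B6 mice. The exact 95% Poisson interval of the 13 counts, which covers counting error only, ran from 6.92 to 22.2 counts, or from -1.60 to 0.08 relative to the panel median, and that of the 26 counts from -1.08 to 0.08. The interval of the WT/B6 mouse reaches into the range of the Mrl mice, -1.96 to -1.42, and that of the cGAS KO/B6 mouse does not. The lowest and the highest levels came from RNA of the spleen, and the study describes its gene expression analysis as made on total splenocytes. In such RNA, fewer cells of a type and less RNA per cell cannot be told apart. How much of counts this low is background is unknown, since no negative controls were analysed here.

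ccl5 was above the panel median in every mouse. Its level was 3.48, 3.36 and 3.16 in the WT/Mrl mice and 3.14, 3.56, 3.26 and 3.76 in the cGAS/Mrl mice. The WT/B6 mouse had 1.36, the cGAS KO/B6 mouse 2.78, and the DMXAA-injected mice 4.72 and 4.99. The order of the groups was WT/B6, cGAS KO/B6, WT/Mrl, cGAS/Mrl and DMXAA from lowest to highest. The 2 Mrl groups, at 3.33 ± 0.16 (SD, n = 3) and 3.43 ± 0.28 (SD, n = 4), overlapped, and no other neighbours did, although the B6 genotypes are single mice without a spread. In linear terms ccl5 lay at 10.1 ± 1.13 (SD, n = 3) and 10.9 ± 2.15 (SD, n = 4) times the panel median in WT/Mrl and cGAS/Mrl mice, and at 2.57 and 6.86 times in the WT/B6 and cGAS KO/B6 mouse. The DMXAA-injected mice reached 26.3 and 31.8 times. The counts behind these levels were 54 in the WT/B6 mouse, 247 in the cGAS KO/B6 mouse, 1182 to 2385 in the Mrl mice, and 17903 and 19235 after DMXAA. The groups followed the same order in mean counts.

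ccr1 was below the panel median in every mouse. Its level was -0.52, -0.60 and -0.39 in the WT/Mrl mice and -0.80, -0.57, -0.20 and -0.18 in the cGAS/Mrl mice. It was -0.93 in the WT/B6 mouse and -0.58 in the cGAS KO/B6 mouse, and after DMXAA it was -3.74 and -3.57. Relative to the panel median the DMXAA-injected mice were thus the lowest by a wide margin, whereas their 51 and 51 counts were more than the 11 of the WT/B6 mouse and the 24 of the cGAS KO/B6 mouse, and fewer than the 74 to 158 of the Mrl mice. The 4 groups without DMXAA could not be ordered. The cGAS KO/B6 mouse lay inside the range of the Mrl mice, and the 95% Poisson interval of the WT/B6 mouse, -1.94 to -0.09, spanned all of that range.

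ccr2 was the receptor with the higher counts. Its level was 1.61, 1.44 and 1.40 in the WT/Mrl mice and 1.52, 1.83, 1.66 and 1.85 in the cGAS/Mrl mice. The WT/B6 mouse had 2.15 and the cGAS KO/B6 mouse 0.92, on 93 and 68 counts. The DMXAA-injected mice had 0.43 and -0.23, on 915 and 516 counts. The lone B6 mice lay on either side of the 7 Mrl mice, and the DMXAA-injected mice were below all other mice relative to the panel median, although their counts exceeded those of both uninjected B6 mice. The Poisson intervals of the WT/B6 mouse, 1.84 to 2.44, and of the cGAS KO/B6 mouse, 0.55 to 1.26, did not overlap each other, which speaks of counting error in these mice and not of their genotypes. The spread within groups was similar for the 4 members and for the panel, with a pooled SD of 0.17 for ccl4, 0.23 for each of ccl5, ccr1 and ccr2, and a median of 0.23 over the 93 genes (6 residual degrees of freedom).

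**Figure D1:**
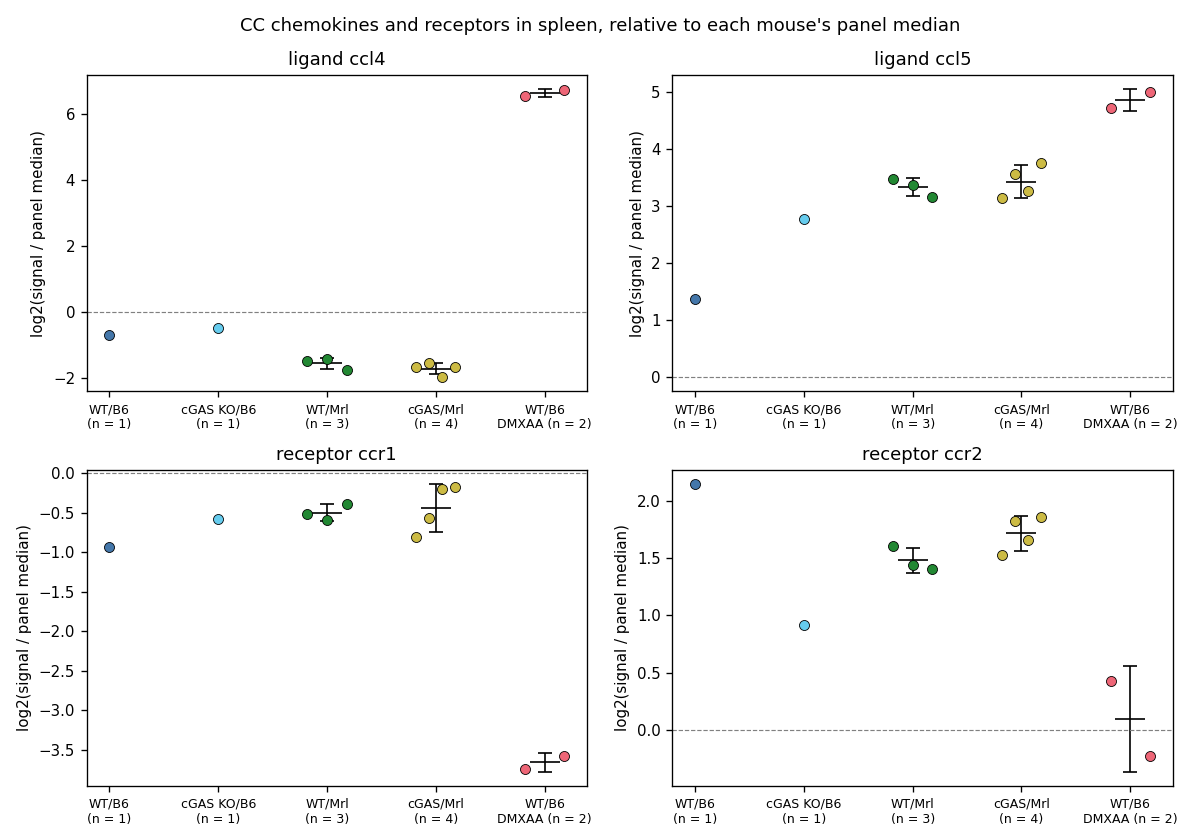
Level of the ligands ccl4 and ccl5 and the receptors ccr1 and ccr2 in each of 11 mice (points), as log2 of the signal over the panel median, with marks for the mean and SD of groups with more than 1 mouse. Relative to the panel median the DMXAA-injected mice were highest for ccl4 (6.56 and 6.72) and ccl5 and lowest for ccr1 (-3.74 and -3.57) and ccr2, while on counts both receptors were higher in them than in the uninjected B6 mice.

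Loss of cGAS on the Mrl background was a comparison with replicates on both sides, and the 4 members differed little in it. The cGAS/Mrl mice overlapped the WT/Mrl mice for each ligand and each receptor, where 4.3% of the 93 genes (4 genes) did not overlap. With limma over these 7 mice, the log2 difference of cGAS/Mrl minus WT/Mrl was -0.16 for ccl4 (95% interval -0.50 to 0.18), 0.10 for ccl5 (-0.31 to 0.50), 0.06 for ccr1 (-0.35 to 0.47) and 0.23 for ccr2 (-0.07 to 0.54). The intervals exclude a 2-fold difference in either direction, a log2 value of 1, for each of the 4 genes on this scale. The adjusted p from limma was 0.997 for each. An exact two-sided permutation test over the 35 divisions of the mice gave p = 0.343 for ccl4, 0.686 for ccl5, 0.857 for ccr1 and 0.114 for ccr2, where the smallest p it allows is 0.0571. limma called 0.0% of the panel higher and 0.0% lower, and 1 gene had an unadjusted p under 0.05. The exact Mann-Whitney test called 0 genes, but with 3 against 4 mice its p cannot go below 0.0571, so that it could call none. The direction of the difference turned for ccl5 without cGAS/Mrl mouse 4 (-0.01), and for ccr1 without mouse 4 or without mouse 3 (-0.02 each). None of the other 5 chemokines of the panel, all of the CXC class, was called either.

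After DMXAA injection both ligands were higher, and the receptors lagged behind the panel. Relative to the panel median, ccl4 was 161-fold higher in the 2 injected mice than in the single WT/B6 mouse (log2 difference 7.33), and ccl5 was 11.2-fold higher (3.49). ccr1 was lower relative to the panel median (-2.72), but its difference was 5.46 on the deposited scale and 2.12 on counts. ccr2 was lower on the same relative scale (-2.05), with 7.01 on the deposited scale and 2.87 on counts. On those uncentred scales both receptors were therefore higher, by less than the panel shifts of 7.87 and 3.94, whereas ccl4 (15.61 and 12.16) and ccl5 (12.44 and 8.40) were higher by more. On the relative scale, each member differed from the single WT/B6 mouse the same way in 2 of 2 injected mice. That is common on this panel, since 88.2% of the 93 genes did not overlap between the injected and both uninjected B6 mice.

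With 1 control mouse, these differences cannot be tested against the spread between control mice. limma takes the spread from the other groups and assumes that the lone mouse varies like them, and on that assumption it called all 4 members (adjusted p from 4.7e-09 for ccl4 to 6.8e-05 for ccr2). These p are too small for ccl4 and ccr1, where the counting error of the WT/B6 mouse alone was wider than the standard errors of 0.22 and 0.27. The lone WT/B6 and cGAS KO/B6 mice differed by 1.42 for ccl5 and -1.23 for ccr2. On the same assumption 37.6% of the 93 genes were called higher and 49.5% lower than the panel median, so that 2 members each way are close to the share of the panel. With both uninjected B6 mice as the control the differences were 7.22 for ccl4, 2.78 for ccl5, -2.89 for ccr1 and -1.43 for ccr2. With a pseudocount of 10 on the signal ccr2 was at -0.49 and was not called (adjusted p = 0.109 from limma, and 3.1e-06 to 0.109 over the alternatives scaled within a mouse with all mice, in which ccr2 was lower throughout).

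The CXC chemokines of the panel, ligands that attract neutrophils (cxcl1, cxcl2 and cxcl6) or activated T cells (cxcl9 and cxcl10), are a comparison for the CC ligands. All 5 were called higher by limma in the DMXAA-injected mice against the single WT/B6 mouse, where 37.6% of the 93 genes were, with a median log2 difference of 2.57 beside -0.89 over all genes. The differences were 7.30 for cxcl10, 4.93 for cxcl2 and 2.57 for cxcl6, but the WT/B6 mouse had only 16, 6 and 10 counts of these genes, 6 of cxcl1 and 16 of cxcl9. cxcl10 had 78085 and 76417 counts after DMXAA.

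Against the uninjected B6 mice, the Mrl mice had more ccl5 and a lower relative level of ccl4. ccl5 was 2.48-fold higher relative to the panel median (log2 difference 1.31, standard error 0.18, adjusted p = 2.5e-04 from limma, 7 mice against 2 lone mice), and all 7 Mrl mice lay above both B6 mice. Each B6 mouse is a group of its own in this fit, so limma takes the spread from the other groups and assumes that the B6 mice vary like them. The SD between the 2 B6 mice, 1.00 for ccl5 and 0.87 for ccr2, is thus not in the standard errors. ccl4 fell by 1.05 (standard error 0.15, adjusted p = 2.5e-04 from limma) relative to the panel median, with all 7 Mrl mice below both B6 mice. As for ccl4 after DMXAA, this p is too small, since the B6 mice had only 13 and 26 counts. Their Poisson intervals, -1.60 to 0.08 and -1.08 to 0.08, were each wider than the interval of the difference, -1.38 to -0.72. ccl4 was higher in Mrl mice on the deposited scale (3.69) and on counts (1.46), where the panel shifted by 4.84 and 2.44. For the receptors the differences were 0.29 for ccr1 (95% interval -0.11 to 0.69, adjusted p = 0.185 from limma) and 0.07 for ccr2 (-0.34 to 0.47, adjusted p = 0.759), neither of them called with division by the panel median. These intervals also leave out the spread between the 2 B6 mice. ccr2 was at 0.68 without the WT/B6 mouse and at -0.55 without the cGAS KO/B6 mouse, both outside its interval. Both the scale and the choice of mice moved the calls of the receptors. ccr1 was called higher with the panel mean (0.54, adjusted p = 0.0187 from limma) and with the median of ratios (0.43, adjusted p = 0.0429), and without cGAS/Mrl mouse 1 (0.35, adjusted p = 0.0494), where its adjusted p over all alternatives was 2.4e-16 to 0.776. ccr2 was called higher with a pseudocount of 10 (0.97, adjusted p = 3.1e-04 from limma) and lower with WT mice only (-0.66, adjusted p = 0.0459), over all alternatives 8.2e-18 to 0.867. Both were called higher on the deposited scale and on counts. limma called 28.0% of the 93 genes higher and 39.8% lower here, and 46.2% of genes did not overlap between the 7 Mrl and the 2 B6 mice, so that 1 member called higher, 1 lower and 2 without overlap are near the shares of the panel.

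The lone B6 mice decide part of this comparison. Without the WT/B6 mouse the difference of ccl5 was 0.60 and was no longer called (adjusted p = 0.0592 from limma, over all alternatives 6.9e-25 to 0.0592), and without the cGAS KO/B6 mouse it was 2.02. ccr2 was at 0.68 without the WT/B6 mouse, where it was called (adjusted p = 0.0376 from limma), and at -0.55 without the cGAS KO/B6 mouse, in step with the levels of these mice on either side of the Mrl range. Of the CXC chemokines, cxcl9 (4.00), cxcl6 (2.65) and cxcl10 (1.19) were called higher in Mrl mice, where cxcl10 was at -0.39 in the WT/B6 mouse but at 1.64 in the cGAS KO/B6 mouse, inside the Mrl range of 1.60 to 2.18, cxcl1 (-1.09) was called lower relative to the panel median although it was higher on counts (1.35), and cxcl2 (-0.80) was not called. The median of the 5 was that of cxcl10, 1.19, beside -0.08 over all genes.

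The DMXAA-injected mice and the Mrl mice could be set against each other with replicates on both sides, although strain, Fas allele and treatment cannot be told apart. This comparison shares its mice with those above. ccl4 was 307-fold higher after DMXAA relative to the panel median (log2 difference 8.26, standard error 0.15, adjusted p = 7.2e-11 from limma), and ccl5 was 2.78-fold higher (1.47, standard error 0.18, adjusted p = 3.0e-05). ccr1 fell by 3.18 (standard error 0.18, adjusted p = 8.9e-08 from limma) and was also lower on counts (-1.18) and on the deposited scale (-0.53), where it was not called (adjusted p = 0.432, over all alternatives 9.3e-10 to 0.432). ccr2 fell by 1.50 (standard error 0.18, adjusted p = 2.3e-05 from limma) relative to the panel median, but was at 1.15 on the deposited scale and 0.49 on counts, neither of them called, with overlapping counts. All 4 members separated the 2 injected from the 7 Mrl mice without overlap, as did 88.2% of the 93 genes. limma called 33.3% of genes higher and 54.8% lower. The exact two-sided permutation p, which doubles the smaller tail, was 0.0556 for each member, the smallest this way of counting allows with 36 divisions of 9 mice. Of the CXC chemokines, cxcl2 (5.51), cxcl10 (5.10) and cxcl1 (2.89) were called higher, cxcl6 (0.39) was not called, and cxcl9 (-2.23) was called lower relative to the panel median and had 0.42 on the deposited scale and -0.24 on counts.

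**Figure D2:**
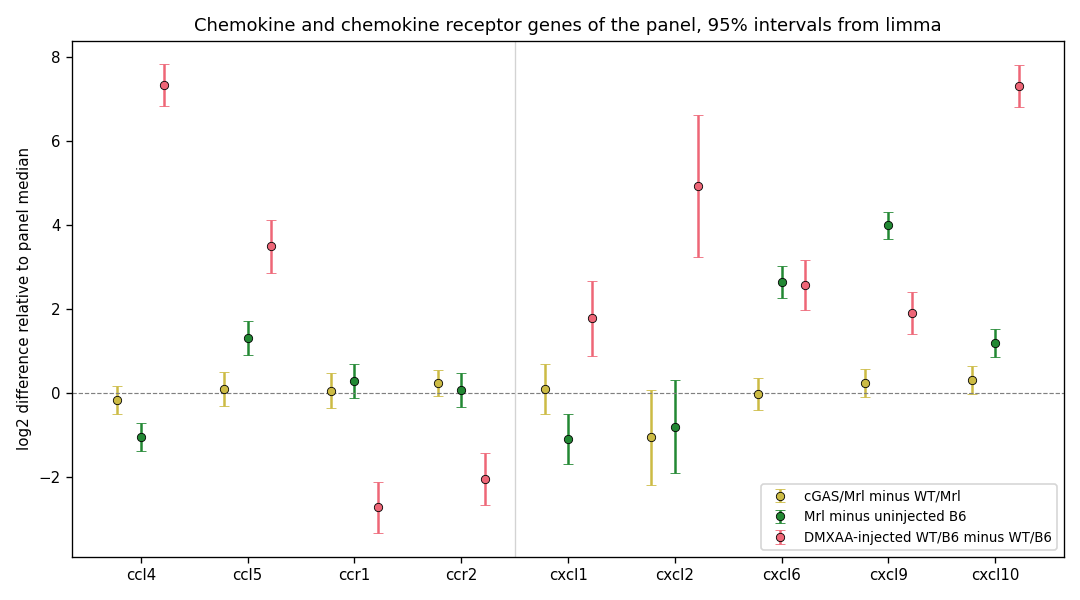
Log2 differences relative to the panel median, with 95% intervals from limma, for the 4 CC genes and the 5 CXC chemokines of the panel in 3 comparisons, where ccl4 (7.33) and cxcl10 (7.30) stand highest after DMXAA. The intervals of cGAS/Mrl minus WT/Mrl include 0 for all 9 genes, and the values below 0 of ccr1 and ccr2 after DMXAA, and of ccl4 and both cxcl1 and cxcl2 in Mrl mice, are above 0 on the uncentred scales. In comparisons with the lone B6 mice the intervals take the spread from the other groups.

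Ratios of members within a mouse do not depend on the factor or on the panel median. They were compared between mice only, because probes can bind with different efficiency. The log2 ratio of ccl4 over ccl5 was -4.96, -4.78 and -4.90 in the WT/Mrl mice and -4.80, -5.11, -5.22 and -5.41 in the cGAS/Mrl mice. It was -2.05 in the WT/B6 mouse and -3.25 in the cGAS KO/B6 mouse, and after DMXAA it was 1.84 and 1.73. The balance of the ligands thus separated DMXAA from Mrl mice in opposite directions from the uninjected B6 mice, with no overlap. Which ligand had more transcripts within a mouse cannot be read from it. The exact 95% binomial (Clopper-Pearson) interval of the ratio was -3.05 to -1.16 in the WT/B6 mouse and -3.89 to -2.66 in the cGAS KO/B6 mouse, and neither held a Mrl or DMXAA value. These intervals cover counting error only, and the lone B6 mice themselves differed by 1.19. The B6 ratios rest on 13 and 26 counts of ccl4, and how much of these is background is unknown. Relative to the panel median, 46.2% of the 93 single genes did not overlap between Mrl and uninjected B6 mice. Between DMXAA-injected and Mrl mice 88.2% did not. How often ratios of other gene pairs separate the groups was not examined. Between group means, the ratio was 112-fold higher in DMXAA-injected than in Mrl mice, and 14.3-fold higher than in the WT/B6 mouse. In cGAS/Mrl mice it averaged -5.14 ± 0.26 (SD, n = 4) beside -4.88 ± 0.09 (SD, n = 3) in WT/Mrl mice, with overlapping ranges.

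The balance of the receptors moved less. The log2 ratio of ccr1 over ccr2 was -2.13, -2.03 and -1.79 in the WT/Mrl mice and -2.33, -2.40, -1.86 and -2.04 in the cGAS/Mrl mice. It was -3.08 in the WT/B6 mouse, -1.50 in the cGAS KO/B6 mouse, and after DMXAA it was -4.17 and -3.34. The DMXAA-injected mice were lowest, but the binomial interval of the WT/B6 mouse, -4.13 to -2.17, took in the value of 1 of them and reached the Mrl range.

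Ligands and receptors parted after DMXAA. The mean log2 signal of ccl4 and ccl5 minus that of ccr1 and ccr2 was 0.46, 0.55 and 0.20 in the WT/Mrl mice and 0.38, 0.38, -0.08 and 0.22 in the cGAS/Mrl mice. It was -0.27 in the WT/B6 mouse, 0.99 in the cGAS KO/B6 mouse, and 7.29 and 7.75 after DMXAA. The 9 mice without DMXAA lay within a range narrower than the distance to the injected mice, and the Mrl mice lay between the lone B6 mice. Of the ligand and receptor pairs, ccl4 over ccr1 differed most between injected and other mice. Its log2 ratio was 10.30 and 10.29 in the injected mice, 0.24 and 0.12 in the WT/B6 and cGAS KO/B6 mouse and -1.76 to -0.82 in the Mrl mice. ccl5 over ccr2 was 1.60 to 1.92 in the Mrl mice, 1.86 in the cGAS KO/B6 mouse and -0.78 in the WT/B6 mouse, and 4.29 and 5.22 after DMXAA. By this ratio the cGAS KO/B6 mouse lay within the Mrl range and the WT/B6 mouse stood apart from it. ccl4 over ccr2 was -3.62 to -3.19 in the cGAS/Mrl mice and -3.14 to -2.86 in the WT/Mrl mice, without overlap. The nearest mice, at -3.19 and -3.14, had 48 and 62 counts of ccl4. This separation was not tested, and the other ratios of members overlapped between these groups. Of the 93 single genes 4.3% did not overlap between them either, and the share among ratios of other gene pairs was not examined. No difference between the genotypes is read from it.

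**Figure D3:**
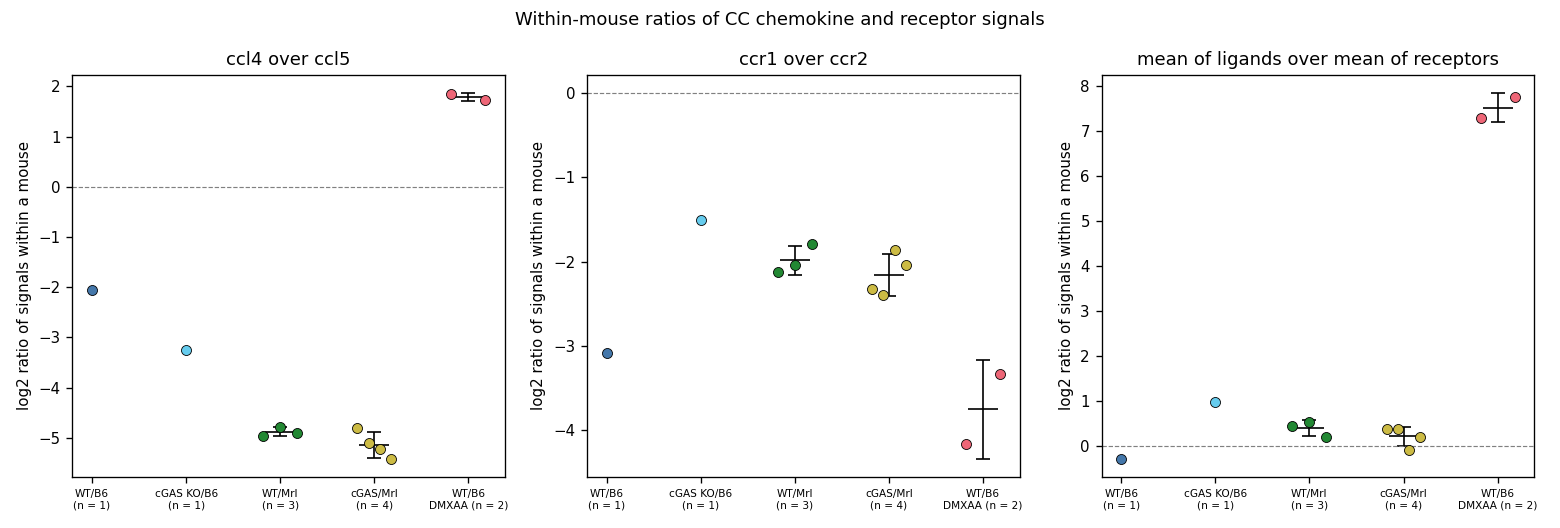
Log2 ratios within each of 11 mice of ccl4 over ccl5, of ccr1 over ccr2, and of the mean log2 signal of the ligands over that of the receptors, with points for mice and marks for the mean and SD. The ratio of ccl4 over ccl5 was -5.41 to -4.78 in Mrl mice, -3.25 and -2.05 in uninjected B6 mice, and 1.73 and 1.84 after DMXAA.

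The uninjected B6 mice allow cGAS KO/B6 to be set beside WT/B6, as values of 1 mouse each with no test. Relative to the panel median, the cGAS KO/B6 mouse was 2.67-fold higher for ccl5 and 2.34-fold lower for ccr2, while ccl4 and ccr1 differed by 1.17- and 1.27-fold. On the log2 scale these differences were 1.42, -1.23, 0.22 and 0.35. Of all 93 genes 24.7% were over 2-fold higher and 11.8% over 2-fold lower in the cGAS KO/B6 mouse, so that 1 member each way is near the share of the panel. Of the CXC ligands, the differences were 2.03 for cxcl10, 0.44 for cxcl2, 0.27 for cxcl9, -0.04 for cxcl1 and -0.93 for cxcl6.

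The genes of the panel whose pattern over the 11 mice was most like that of a member were found by the root-mean-square difference of their relative log2 levels, after the mean of the group means was subtracted from each gene. For ccl4 these were Ifit1 (0.29), tnfa (0.99) and Ifit2 (1.07), where the median over the 92 other genes was 3.50. Ifit1 and Ifit2 encode interferon-induced proteins and tnfa a cytokine of NF-kB signaling. For ccl5 they were Irf1 (0.29), a transcription factor induced by interferon, socs1 (0.56), an inhibitor of cytokine signaling, and Il1ra (0.59), beside a median of 1.48. The ligands were 2.68 apart from each other, where ccl5 ranked 23 of 92 in likeness to ccl4 and ccl4 ranked 84 of 92 in likeness to ccl5. For ccr1 the nearest were Il-18 (0.34), nfkb2 (0.38) and nlrc4 (0.39), beside a median of 1.21, and for ccr2 cd18 (0.40), a leukocyte integrin subunit, yaf2 (0.48) and tlr7 (0.48), beside 1.05. The receptors were 0.76 apart from each other. Small distances are easier to reach for genes that vary little, and the DMXAA-injected mice weigh most in them.

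ccl4 and ccl5 are known targets of NF-kB and interferon signaling, so the panel genes of those pathways were counted beside them, relative to the panel median. Of all 93 genes, limma called 37.6% higher and 49.5% lower after DMXAA against WT/B6, 28.0% and 39.8% in Mrl against uninjected B6 mice, and 33.3% and 54.8% in DMXAA-injected against Mrl mice. Of 11 genes of NF-kB signaling, 6 were called higher and 5 lower by limma after DMXAA against WT/B6 (median 0.97, beside -0.89 for all genes), among them tnfa (6.14) and Il-1b (-6.30, and -1.33 on counts but 2.68 on the deposited scale). In Mrl against uninjected B6 mice 1 was called higher and 4 lower (median -0.10, beside -0.08), and in DMXAA-injected against Mrl mice 4 higher and 4 lower (0.15, beside -0.81). Of 15 interferon-stimulated genes, which include cxcl10, 10 were called higher and 1 lower after DMXAA against WT/B6 (median 1.53), among them Ifit1 (7.40) and Ifit2 (6.63). In Mrl against uninjected B6 mice 8 were called higher and 3 lower (median 0.42), with Ifi47 at 2.44, and in DMXAA-injected against Mrl mice 8 higher and 6 lower (1.36). Between cGAS/Mrl and WT/Mrl mice 0 genes of either list were called by limma, with medians of -0.08 and -0.01 beside -0.01 for all genes, as for the 4 CC genes.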

How the data were processed

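The authors hybridized 50 ng of spleen RNA per mouse to a custom nCounter probe set and normalized to housekeeping genes, which are not named in the sources used here. The deposited values are a linear signal, from 0.0823 to 291903, with no value at 0. All 1023 values were whole multiples of a factor per mouse (tolerance 0.0001), and these whole numbers are called counts. Whether background was subtracted is not given in the sources used here. Log2 of signal over the panel median, with no pseudocount, was tested two-sided with limma 3.58.1 (R 4.3.3), with Benjamini-Hochberg adjustment over 93 genes and a threshold of 0.05. cGAS/Mrl against WT/Mrl used 7 mice, and the other comparisons all 11 mice in 5 groups. The fit was tested on simulated data in which every mouse, the lone B6 mice included, had the pooled spread within groups. That simulation held no separate counting error, so it could not test whether the lone mice vary like the others. Ratios and lists were given no p. Exact tests and intervals used SciPy 1.17.1 under Python 3.11.15, and figures Matplotlib 3.10.9. Mice of a group differed in counts by chi-square statistics of 2.91 to 27.1 times the degrees of freedom, so none was counted as a repeat. That the samples of a group are separate mice is given by the labels. The text names the 4 members, the other chemokines, the 3 genes most like each member, and at most 3 genes of each list per comparison. The members and lists were chosen with earlier results of these data known. Names and the order of genes came from RefSeq (GRCm38.p6), with no coordinates printed, and cxcl6 matched no RefSeq symbol. The 10 housekeeping genes looked for were not among the 93.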

Additional observations from a re-analysis of the deposited data

How the results depend on the processing

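Over 336 values of the 4 members under alternative settings, 307 kept their direction and side of the threshold, 17 reversed, 9 passed it only then and 3 no longer did. Without division by the panel median, after DMXAA against WT/B6 ccr1 was at 5.46 and ccr2 at 7.01 on the deposited scale, and at 2.12 and 2.87 on counts, an alternative chosen after seeing the data. ccl4 in Mrl against uninjected B6 mice was at 3.69 and 1.46, and ccr2 in DMXAA-injected against Mrl mice at 1.15 and 0.49 (0.489). These scales keep the shift of the whole panel. In Mrl against uninjected B6 mice, ccr1 was at -0.248 with a pseudocount of 10, and ccr2 at -0.0932 with genes of a mean count under 20 left out and at -0.665 with WT mice only, and the cause was not tested. With each mouse left out, ccr2 ranged there from -0.548 to 0.681, and between cGAS/Mrl and WT/Mrl mice ccl5 ranged from -0.0131 to 0.193 and ccr1 from -0.0245 to 0.182. Without the WT/B6 mouse no value of DMXAA against WT/B6 exists. Same-numbered WT/Mrl and cGAS/Mrl mice deviated from their group means with correlations of -0.20, 0.25 and 0.11 over genes. These values show no clear pairing by number and cannot exclude one. The study describes its WT/Fas lpr mice as littermate controls, but the labels name no litters. With the replicate block, to which cGAS/Mrl mouse 4 contributes nothing, 0 genes were called, ccl5 was at -0.0131 and ccr1 at -0.0245. The exact Mann-Whitney test called 0 genes for DMXAA-injected against Mrl mice, where it cannot go below 0.0556, in place of 82 with limma. The calls of limma, 35 higher and 46 lower after DMXAA against WT/B6, 26 and 37 in Mrl against uninjected B6 mice and 31 and 51 for DMXAA against Mrl, became 93 and 0, 93 and 0 and 54 and 5 on the deposited scale, 73 and 2, 83 and 2 and 52 and 23 on counts, 41 and 39, 31 and 32 and 39 and 42 with the median of ratios, and 36 and 35, 22 and 23 and 40 and 43 with voom. Few counts limit the uninjected B6 mice, where 46 and 26 of 93 genes had counts under 20.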

Other observations

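The 2 DMXAA-injected mice differed more in ccr2 than in the other members. Mouse 1 minus mouse 2 was 0.66 on the relative log2 scale for ccr2, on 915 and 516 counts, which ranked 7 of 93 genes by size, where the median size was 0.13. It was -0.16 for ccl4, -0.27 for ccl5 and -0.17 for ccr1, which ranked 44, 29 and 43. ccr1 had 51 counts in each of these mice.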
